A study of Mus musculus with 5 samples.

Results

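The circadian clock genes are 10 genes selected by name, namely Arntl, Clock, Per1, Per2, Per3, Cry1, Cry2, Nr1d1, Nr1d2 and Dbp. All 10 were found among the 17015 genes of the deposited expression table, and all 10 passed the minimum mean level used for testing, 0.5 FPKM, which 12148 genes passed. FPKM is in general the number of fragments assigned to a gene, scaled to its transcript length and to the size of the library. How the libraries were scaled here is not given. None of the 10 passed the test for a difference between genotypes, and their expression in the 2 libraries labelled skmNrip1-/- mostly lay within or close to the range of the 3 WT control libraries. Per1, Arntl and Nr1d2 varied most among the WT control libraries themselves.

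The libraries are RNA-seq of the tibialis anterior (TA), a fast-twitch muscle of the lower hind limb, from sedentary male mice 8 weeks old. In skmNrip1-/- mice, Cre recombinase under the myogenin promoter deletes a loxP-flanked (Nrip1 fl/fl) exon 4 in skeletal muscle, so other cells of the muscle keep the gene. Nrip1 encodes RIP140, a transcriptional corepressor. The floxed mice were C57BL/6J and the Cre mice C57BL/6JN, and the WT control mice were Cre-negative littermates from this cross. The study's general protocol places tissue collection in the early afternoon, in mice on a light and dark cycle, under pentobarbital anaesthesia. The time at which each of these 5 mice was sampled was not given in the sources used here. As nothing in the labels ties a library to a litter or day, p-values measure only the spread between these libraries.

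The mammalian clock is a transcriptional feedback loop that runs in almost every cell, skeletal muscle included. ARNTL (also called BMAL1) and CLOCK form a heterodimer that binds E-boxes and activates the Per and Cry genes, whose protein products then inhibit the heterodimer. In an additional loop, the heterodimer activates Nr1d1 and Nr1d2, which encode the haem-binding nuclear receptors REV-ERBα and REV-ERBβ. These repress Arntl and Cry1 at ROR elements, where RORs activate. DBP is an output factor that binds D-boxes, among others in the Per genes. In nocturnal rodents, Nr1d1, Dbp and the Per genes peak during the later day and early night, whereas Arntl peaks at the turn from night to day, so that a single harvest samples each gene at a different point of its cycle.

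The elements through which these loops act are shown here because each class of element ties 1 arm of the clock to another. RefSeq promoter windows (GRCm38.p6, 250 bases before to 50 bases after each annotated start) were at hand for 9 of the 10 clock genes, in 13 windows, but not for Per2. Capitals mark the motif, lower case the flanking bases, and each stretch is printed 5′ to 3′ on the strand of its gene.
Arntl, ROR element core TAGGTCA, chr7:113207530-113207558, plus strand: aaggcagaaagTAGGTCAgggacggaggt
Cry1, E-prime box and E-box, chr10:85185089-85185153, minus strand: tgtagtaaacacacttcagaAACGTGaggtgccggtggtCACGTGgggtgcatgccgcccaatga
Cry2, E-prime box, chr2:92434210-92434255, minus strand: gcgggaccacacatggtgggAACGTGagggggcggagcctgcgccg
Nr1d1, E-prime box, chr11:98775380-98775425, minus strand: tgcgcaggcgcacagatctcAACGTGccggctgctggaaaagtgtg
Per1, E-box, chr11:69098763-69098808, plus strand: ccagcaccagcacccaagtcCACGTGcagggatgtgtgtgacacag
Per3, D-boxes, chr4:151044796-151044890, minus strand: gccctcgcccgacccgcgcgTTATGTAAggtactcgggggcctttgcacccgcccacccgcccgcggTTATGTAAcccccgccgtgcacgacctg

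Both strands were searched for the E-box CACGTG, the E-prime box CACGTT, which the gene's own strand shows as its reverse complement in the capitals printed for Cry1, Cry2 and Nr1d1, the D-box TTATGTAA and the ROR element core TAGGTCA, and no match overlapped another. The E-box was in windows of Cry1 and Per1, 2 of the 13 clock windows, and in 7.15% of the 32851 promoter windows of the table. The E-prime box was in windows of Cry1, Cry2 and Nr1d1, against 4.68% of all windows. The 2 D-box copies, at 205 and 158 bases before the start, were both in the Per3 window, and 0.938% of all windows held this motif. The ROR element core was in the Arntl window alone among the clock windows, 30 bases after the start, and 2.61% of all windows held it. The printed Arntl stretch overlaps an annotated exon. The other stretches lie outside annotated exons. A match is a run of letters and not a measured binding site.

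The targeted gene went against its label. Nrip1 (chromosome 16, 76287400 to 76373827, minus strand) measured 4.64, 7.69 and 6.55 FPKM in WT control replicates 1 to 3 and 25.3 and 22.5 FPKM in the libraries labelled skmNrip1-/- (log2 difference 1.94 ± 0.21 SE, limma, adjusted p = 0.0261). The call was lost without WT control replicate 3 (adjusted p = 0.146) and without either library labelled skmNrip1-/- (adjusted p = 0.204 without replicate 1 and 0.142 without replicate 2). The study also measured Nrip1 expression and RIP140 protein in gastrocnemius and heart of this line, but not in these libraries. The table holds 1 value per gene, so the deleted exon cannot be seen separately, and every direction below rests on the labels. The summed fast muscle markers (Myh4, Myh1, Actn3 and Ckm) were 25272 to 31751 FPKM in WT control and 22482 to 23491 FPKM in the libraries labelled skmNrip1-/-, in a muscle of mostly fast fibres. Of these, 3 had log2 differences below 0 and Myh1 was above 0 (0.05), and the groups overlapped in Myh4 and Myh1. Summed red blood cell markers (Hba-a1, Hbb-bs, Alas2) were 284 to 428 FPKM in WT control and 456 to 561 FPKM in the other group, with no overlap. This sum came mostly from Hba-a1 and Hbb-bs, and in Alas2 the groups overlapped. Slow muscle markers summed to 100 to 295 FPKM and 68.8 to 80.6 FPKM, respectively, mostly from Myl3, the only member below 0 (log2 difference −1.24). The other members, Myh7 (0.35), Tnnt1 (0.003) and Tnnc1 (0.22), were above 0, and the groups overlapped in each. The part of the fibre and red blood cell markers in the clock gene values was not tested. The groups overlapped in the summed markers of endothelium, adipocytes, macrophages, fibroblasts and Schwann cells, and no marker in any list was called. In whole muscle, fewer cells of a type and less RNA per cell cannot be told apart.

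Levels of the clock genes, compared per length of transcript as FPKM, spanned a wide range in TA. Dbp was highest with a mean of 61.2 FPKM over the 5 libraries, above 91.5% of all tested genes, and its lowest library exceeded the highest of Nr1d2. Nr1d2 (37.1 FPKM) and Nr1d1 (34.0 FPKM) overlapped each other in range. Per1 (19.9 FPKM) lay below both and overlapped Cry2 (12.9 FPKM). Per3 (7.68 FPKM), Cry1 (5.60 FPKM) and Per2 (4.26 FPKM) followed, each overlapping its neighbour in this order. The activators were lowest, with Arntl at 2.19 FPKM and Clock at 1.79 FPKM, overlapping each other, and Clock exceeded 22.4% of tested genes. The genes known to peak toward evening thus made up the upper end of the order, apart from Per2 and Per3, and the heterodimer genes the lower end.

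**Figure D1:**
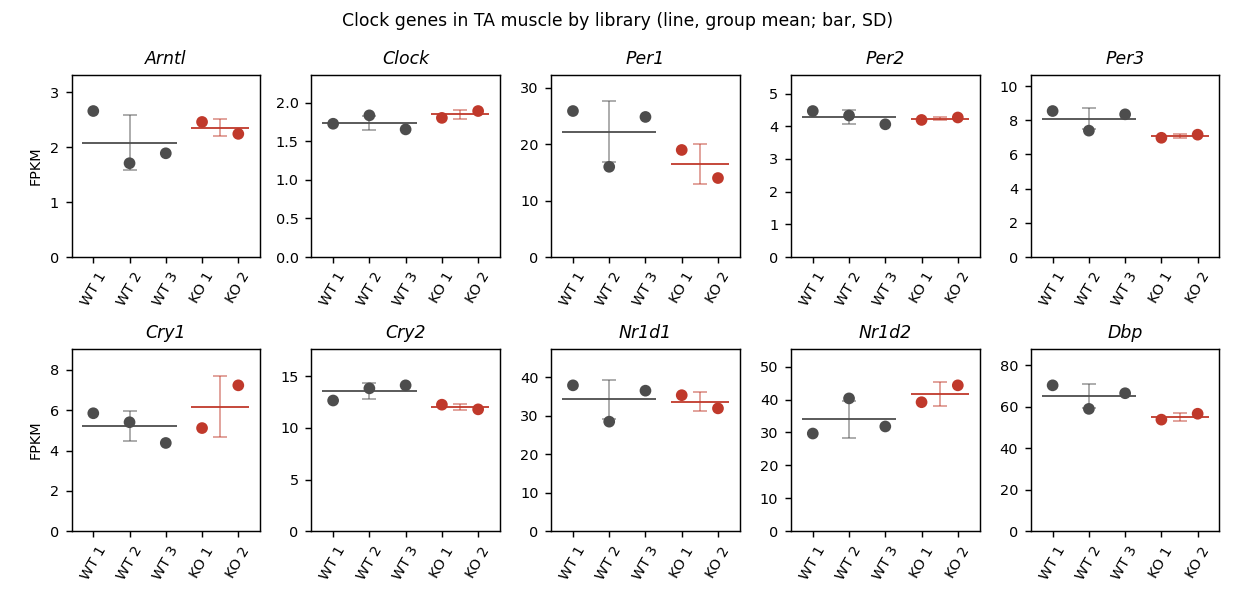
FPKM of each clock gene (vertical axis, from 0, own scale per panel) in WT control replicates 1 to 3 (WT, grey) and in skmNrip1-/- replicates 1 and 2 by label (KO, red), with a line at each group mean and a bar for its SD. Dbp, Per3 and Cry2 show both red points below all grey points, and in the other 7 panels the groups overlap.

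The comparison of genotypes set the clock genes of TA with and without muscle Nrip1, by label, side by side. None of the 10 was called by limma, which took an adjusted p no higher than 0.05 together with a fold of 1.2 or more, where 0.453% of all tested genes were called, 45 higher and 10 lower in the libraries labelled skmNrip1-/-. None had an unadjusted p of 0.05 or less either, which 11.9% of tested genes had. The log2 difference was above 0 for 4 clock genes and below 0 for 6, with a median of −0.02 (all tested genes −0.00), and the median size of the difference was 0.19 (all tested genes 0.15). In 3 clock genes, Per3, Cry2 and Dbp, both libraries labelled skmNrip1-/- lay below all WT control libraries, and in none above. Groups that did not overlap were found in 30.2% of tested genes in either direction and in 14.4% with the lower values in the libraries labelled skmNrip1-/-, so 3 of 10 is close to the share in either direction. Rescaled to TPM, in which each library sums to the same total, the median of all genes moved to −0.29 and that of the clock genes to −0.31, 29 genes were called higher and 59 lower, and again no clock gene was called.

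**Figure D2:**
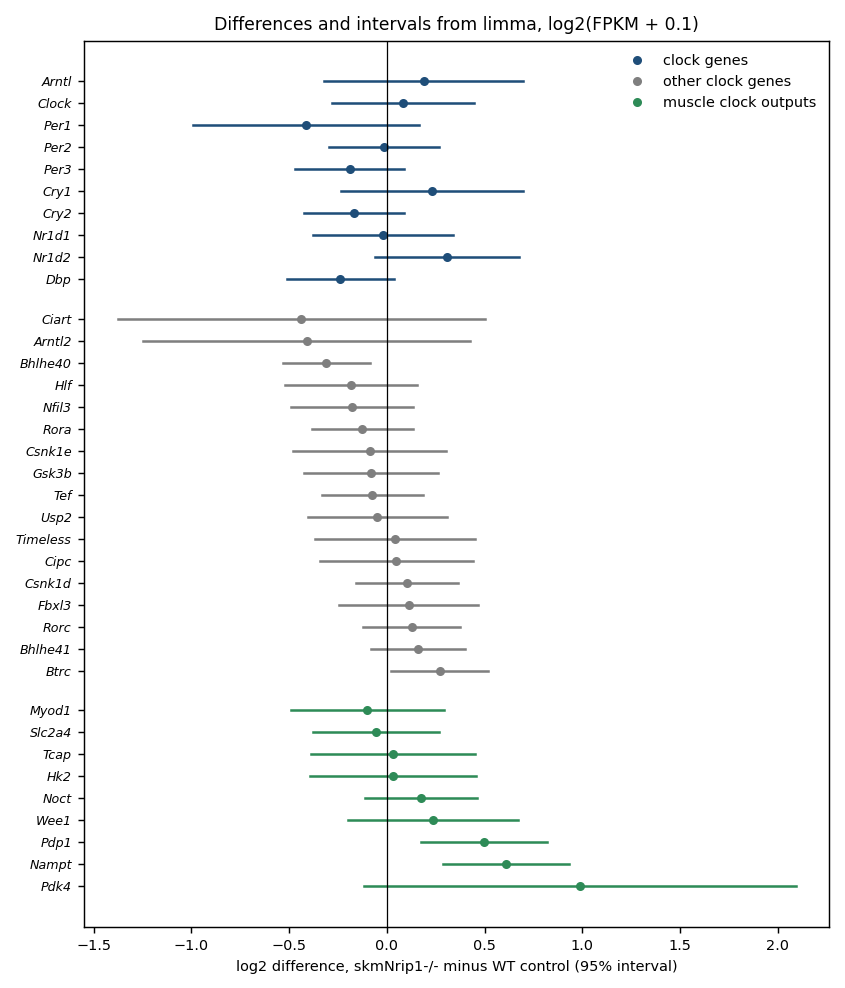
Log2 difference, skmNrip1-/- by label minus WT control (horizontal axis, points), with its 95% interval (lines) for the 10 clock genes, 17 other clock genes and 9 muscle clock outputs. Every interval of the 10 clock genes spans 0, and those of Bhlhe40, Btrc, Nampt and Pdp1 do not.

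Among the activators, Arntl (ENSMUSG00000055116), which encodes the non-redundant partner of CLOCK, measured 2.66, 1.71 and 1.89 FPKM in WT control and 2.46 and 2.24 FPKM in skmNrip1-/- by label. WT control replicate 1 was the highest and replicate 2 the lowest of all 5, so the groups overlapped entirely. The log2 difference was 0.19 ± 0.21 (SE; 95% interval −0.32 to 0.70; limma, adjusted p = 0.799), and it turned to −0.10 after rescaling to TPM. Leaving out 1 library moved it from 0.06 (without WT control replicate 2) to 0.37 (without WT control replicate 1). Clock (ENSMUSG00000029238), whose product is the histone acetyltransferase partner of ARNTL, was nearly level across libraries at 1.73, 1.84 and 1.66 FPKM in WT control and 1.81 and 1.89 FPKM in skmNrip1-/- by label. The difference of 0.08 ± 0.15 (interval −0.28 to 0.45; adjusted p = 0.884) left the groups overlapping, and under TPM it was −0.20. In GENCODE M21 on GRCm38, Arntl lies on the plus strand of chromosome 7 (113207465 to 113314126, 21 exons in the longest coding transcript) and Clock on the minus strand of chromosome 5 (76209868 to 76304792, 23 exons).

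Of the period genes, whose products form the repressor complex with the cryptochromes, Per1 (ENSMUSG00000020893; chromosome 11, 69095217 to 69109960, plus strand) varied most. Per1 measured 25.9, 16.0 and 24.8 FPKM in WT control and 19.0 and 14.0 FPKM in skmNrip1-/- by label. WT control replicates 1 and 3 were high, whereas WT control replicate 2 lay between the libraries labelled skmNrip1-/-. The ratio of group means was 0.742 and the log2 difference −0.41 ± 0.24 (interval −0.99 to 0.16; limma, adjusted p = 0.576), which allows folds from 0.504 to 1.12. Per2 (ENSMUSG00000055866; chromosome 1, 91415982 to 91459324, minus strand), which is needed together with Per1 for sustained rhythms, was the steadiest, at 4.47, 4.33 and 4.06 FPKM against 4.19 and 4.27 FPKM. All Per2 values lay within the WT control range, with a difference of −0.02 ± 0.12 (interval −0.30 to 0.26; adjusted p = 0.976). Per3 (ENSMUSG00000028957; chromosome 4, 151003652 to 151044665, minus strand), the member that is dispensable for the core loop and whose window held both D-boxes, measured 8.54, 7.39 and 8.35 FPKM in WT control and 6.98 and 7.16 FPKM in skmNrip1-/- by label. Both of the latter were below every WT control library, but WT control replicate 2 was the closest to them. The difference was −0.19 ± 0.12 (interval −0.47 to 0.09; adjusted p = 0.595).

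The cryptochromes, the direct inhibitors of the heterodimer, lay on opposite sides of 0. Cry1 (ENSMUSG00000020038; chromosome 10, 85131700 to 85185064, minus strand), the later and stronger repressor, measured 5.85, 5.41 and 4.38 FPKM in WT control and 5.12 and 7.24 FPKM in skmNrip1-/- by label. The single high library, skmNrip1-/- replicate 2, set the mean, as replicate 1 lay within the WT control range. The difference of 0.23 ± 0.20 (interval −0.24 to 0.70; limma, adjusted p = 0.720) became −0.02 without replicate 2, 0.48 without replicate 1 and −0.06 under TPM. Cry2 (ENSMUSG00000068742; chromosome 2, 92403646 to 92434043, minus strand) measured 12.6, 13.8 and 14.1 FPKM in WT control and 12.2 and 11.8 FPKM in skmNrip1-/- by label. The groups did not overlap, but the lowest WT control library and the higher of the others were close, and the difference was −0.17 ± 0.11 (interval −0.42 to 0.09; adjusted p = 0.607).

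The nuclear receptors of the additional loop are partly redundant in function, yet their values went different ways across libraries. Nr1d1 (ENSMUSG00000020889; chromosome 11, 98767932 to 98775333, minus strand) measured 37.9, 28.5 and 36.5 FPKM in WT control and 35.3 and 31.9 FPKM in skmNrip1-/- by label. Both of the latter fell inside the WT control range, and the difference was −0.02 ± 0.15 (interval −0.38 to 0.34; limma, adjusted p = 0.981). Nr1d2 (ENSMUSG00000021775; chromosome 14, 18204054 to 18239127, minus strand) measured 29.7, 40.4 and 31.8 FPKM in WT control and 39.2 and 44.3 FPKM in skmNrip1-/- by label. WT control replicate 2 was again with the libraries labelled skmNrip1-/-, this time on the high side, and exceeded 1 of them. The ratio of group means was 1.23 and the difference 0.31 ± 0.15 (interval −0.06 to 0.68; adjusted p = 0.506), and 0.01 under TPM.

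Dbp (ENSMUSG00000059824; chromosome 7, 45705088 to 45710203, plus strand), a PAR bZIP factor driven directly by the heterodimer, measured 70.3, 58.9 and 66.5 FPKM in WT control and 53.7 and 56.6 FPKM in skmNrip1-/- by label. All WT control libraries were higher, WT control replicate 2 by the least. The difference was −0.24 ± 0.11 (interval −0.51 to 0.03; limma, adjusted p = 0.485), with a ratio of group means of 0.846 and the smallest adjusted p of the 10 clock genes. Exons of Dbp share 539 of their 2993 bases (18.01%) with Sphk2 on the opposite strand, and those of Nr1d1 share 263 of 3077 bases (8.55%) with Thra. Cry2 shares 4.67% and Arntl 0.439% with antisense noncoding genes. Since strand-specific counting is not stated, reads from these shared stretches cannot be told apart.

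Spread within the WT control group was near that of other genes for the median clock gene, but differed widely among the 10. The SD of log2 values over the 3 WT control libraries was 0.38 for Per1, 0.32 for Arntl, 0.23 for Nr1d2, 0.22 for Nr1d1 and 0.21 for Cry1. It was 0.13 for Dbp, 0.11 for Per3, 0.08 for Cry2 and 0.07 for both Clock and Per2. The median of 0.17 over the 10 was near that of all tested genes (0.18), and 5 of the 10 exceeded it. From the lowest to the highest WT control library, Per1 changed 1.62-fold and Arntl 1.56-fold, both more than the ratio between group means.

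**Figure D3:**
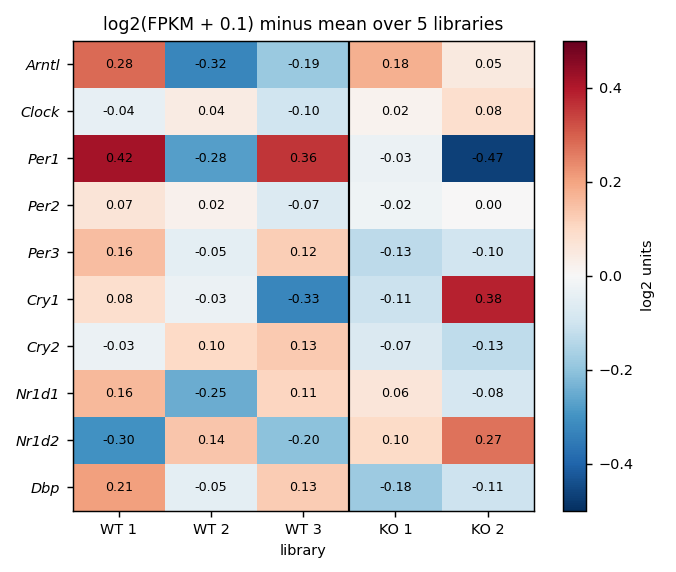
Log2(FPKM + 0.1) of each clock gene (rows) minus its mean over the 5 libraries, in WT control (WT) and skmNrip1-/- by label (KO) libraries (columns), with the colour scale in log2 units. Per1 is positive in WT control replicates 1 and 3 and negative in replicate 2 and both KO libraries, and Nr1d2 has the opposite signs in every library.

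Relative to each gene's mean over the 5 libraries, WT control replicate 2 stood between the libraries labelled skmNrip1-/- for Per1, Nr1d2 and Clock, and Clock hardly varied. WT control replicate 2 was the WT control library nearest to the skmNrip1-/- mean for 6 of the 10 (Clock, Per1, Per2, Per3, Nr1d2 and Dbp). It was also nearest for 44.6% of all tested genes, so 6 of 10 is not far from the general share. For Per3 and Dbp, WT control replicate 2 still lay above both libraries labelled skmNrip1-/-. Without it, the log2 difference was −0.63 for Per1 (limma, adjusted p = 0.202), 0.44 for Nr1d2 (adjusted p = 0.196) and −0.31 for Dbp (adjusted p = 0.244). These 3 genes then had an unadjusted p of 0.05 or less, as did 15.6% of all tested genes, and none was called. With this library left out the groups did not overlap for 7 of the 10, Per3, Cry2 and Dbp among them, against 48.1% of all tested genes. Per1 was also at −0.63 without skmNrip1-/- replicate 1. The remaining libraries moved Per1 the other way, to −0.20 without skmNrip1-/- replicate 2, −0.29 without WT control replicate 1 and −0.32 without WT control replicate 3. Leaving out any library except WT control replicate 2 gave no clock gene with an unadjusted p of 0.05 or less.

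Ratios of clock genes within a library remove any scaling of the library. The pairs given here were chosen after the values were seen and were not tested, and the first and second share Nr1d2. The ratio of Per1 to Nr1d2 FPKM was 0.871 and 0.780 in WT control replicates 1 and 3, against 0.396 in replicate 2 and 0.484 and 0.316 in the libraries labelled skmNrip1-/-. The ratio of Nr1d1 to Nr1d2 was 1.28 and 1.15 in WT control replicates 1 and 3, 0.705 in replicate 2, and 0.901 and 0.720 in the libraries labelled skmNrip1-/-. Thus both ratios in WT control replicate 2 were below those of the other WT control libraries and below that of skmNrip1-/- replicate 1. The ratio of Dbp to Arntl was 26.4, 34.5 and 35.2 in WT control and 21.9 and 25.2 in the libraries labelled skmNrip1-/-, and here WT control replicate 1 rather than 2 was nearest.

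An index was taken for each library from the centred log2 values. The mean of Arntl, Clock and Cry1 was subtracted from that of the genes that peak late in the day (Per1, Per2, Per3, Nr1d1, Nr1d2 and Dbp). Whether the index marks the position of the clock was not tested. The index was 0.01, 0.03 and 0.28 in WT control and −0.06 and −0.25 in the libraries labelled skmNrip1-/-. The groups did not overlap in this index, which was not tested, but neither did they in 30.2% of single tested genes. No such share was taken for indices of other genes. WT control replicates 1 and 2 were nearer to skmNrip1-/- replicate 1 than to WT control replicate 3. The part of collection time in these values was not tested.

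Beyond the 10, 20 other genes of the clock were examined, including the ROR receptors, the PAR bZIP factors Tef and Hlf, the repressors Bhlhe40, Bhlhe41, Ciart and Nfil3, and the kinases and ubiquitin ligase subunits that set the stability of PER and CRY. Of these, 17 were tested and none was called, with log2 differences above 0 in 7 and below 0 in 10 (median −0.07). Npas2, Rorb and Fbxl21 were below the minimum level. Bhlhe40, encoding a repressor that competes for E-boxes, measured 34.2, 33.5 and 34.8 FPKM in WT control and 27.6 and 27.5 FPKM in skmNrip1-/- by label. The groups were far apart relative to their spread, with a difference of −0.31 ± 0.09 (interval −0.53 to −0.09), but the value did not pass the correction (limma, adjusted p = 0.282). Btrc, a subunit of the ligase that marks PER proteins for degradation, measured 10.7, 11.8 and 11.03 FPKM against 13.6 and 13.4 FPKM. Its difference of 0.27 ± 0.10 (adjusted p = 0.382) was −0.03 under TPM. Ciart, a repressor of the heterodimer, had the most negative difference, −0.44 ± 0.39 (adjusted p = 0.738), and varied from 5.26 to 13.3 FPKM among WT control libraries alone. Single libraries decided this value, which was −0.09 without WT control replicate 1 or without skmNrip1-/- replicate 2 and −0.79 without skmNrip1-/- replicate 1. WT control replicate 2 was lowest in its group for Ciart, as it was for Per1 and Dbp.

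Genes known as rhythmic or clock-controlled in muscle numbered 9, all tested and none called, with 7 above 0 and a median log2 difference of 0.18. Under TPM, where the median of all genes was −0.29, the median of this list turned to −0.12, and Nampt and Pdp1 were at 0.31 and 0.20. Nampt, the rate-limiting enzyme of NAD+ salvage, measured 41.5, 52.7 and 42.8 FPKM in WT control and 72.1 and 66.7 FPKM in skmNrip1-/- by label. Both of the latter exceeded all WT control libraries, at a difference of 0.61 ± 0.13 that did not pass the correction (limma, adjusted p = 0.169). Pdp1, the phosphatase that activates pyruvate dehydrogenase, measured 38.5, 49.6 and 47.1 FPKM against 65.1 and 61.5 FPKM, a difference of 0.50 ± 0.14 (adjusted p = 0.247). Pdk4, the kinase that inactivates pyruvate dehydrogenase, had the most positive difference of the list, 0.99 ± 0.46 (adjusted p = 0.474). Its lowest value, 78.2 FPKM in WT control replicate 1, stood well below 255 and 185 FPKM in the other WT control libraries, and without that library the difference was 0.50. The most negative difference was −0.10 for Myod1, the myogenic transcription factor, and it was 0.12 without skmNrip1-/- replicate 1.

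**Figure D4:**
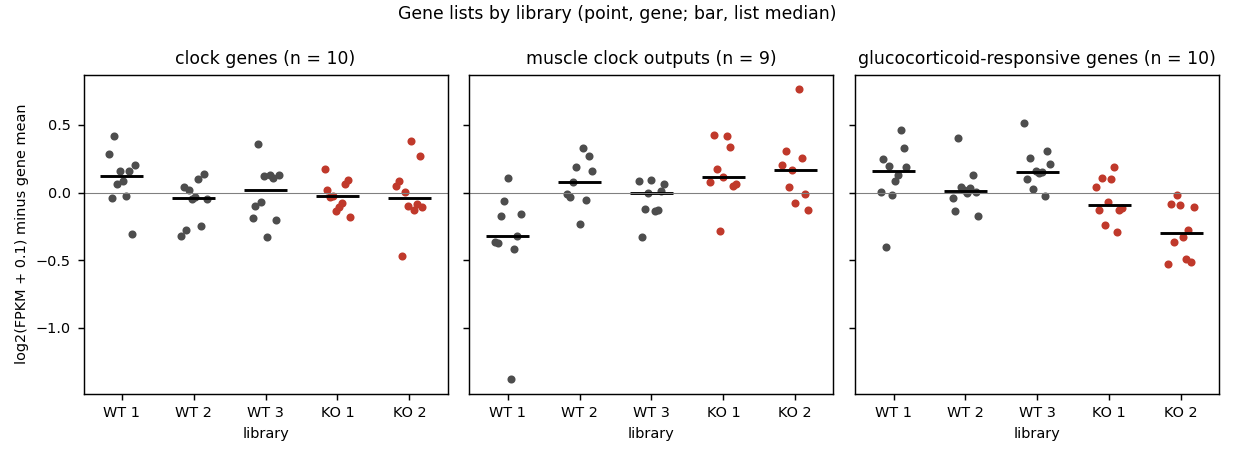
Log2(FPKM + 0.1) minus the gene's mean over the 5 libraries (vertical axis) for the 10 clock genes, 9 muscle clock outputs and 10 glucocorticoid-responsive genes, with each point a gene and each bar the list's median, in WT control (WT) and skmNrip1-/- by label (KO) libraries. Bars of the clock genes stay between −0.04 and 0.12, whereas those of the glucocorticoid-responsive genes are lowest in both KO libraries, at −0.09 and −0.30.

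Because Per1 is itself induced by glucocorticoids and by signals that induce immediate early genes, both groups were read beside it. All 10 glucocorticoid-responsive genes had log2 differences below 0, against 50.1% of all tested genes, with a median of −0.22 and none called. The list was chosen with earlier results known and its genes share an inducing signal, so these are not 10 separate outcomes. In 4 of the 10 both libraries labelled skmNrip1-/- lay below all WT control libraries, as in 14.4% of all tested genes, and otherwise the groups overlapped. The most negative difference was −0.53 ± 0.17 for Cebpd (limma, adjusted p = 0.302), a transcription factor gene, and the least negative −0.13 for Klf9, encoding a Krüppel-like factor. Summed over the list, the level was 425 to 476 FPKM in WT control and 383 to 390 FPKM in the libraries labelled skmNrip1-/-. Leaving out 1 library at a time, the median ranged from −0.42 without skmNrip1-/- replicate 1 to −0.16 without replicate 2. The part of glucocorticoid exposure in the Per1 values was not tested. Of 8 immediate early genes, 7 were tested and none was called, with 4 above 0. Fos was 0.927 to 1.04 FPKM in WT control and 2.44 and 1.22 FPKM in skmNrip1-/- by label (difference 0.74 ± 0.30, adjusted p = 0.397), and its difference was 0.26 without skmNrip1-/- replicate 1. Ier2 had the most negative difference of this list, −0.16. The part of the signals that induce these genes in the Per1 values was not tested.

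With 3 and 2 libraries, the 95% intervals of the clock genes remained wide. They run down to a fold of 0.504 for Per1 and up to 1.62 for Arntl, and are narrower for Per2, from 0.813 to 1.201. Sequencing depth is unknown, since the files give no counts, and no limit from counting error can be given.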

How the data were processed

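RNA-seq was measured in TA muscle of 3 WT control and 2 skmNrip1-/- mice, grouped by their labels. The study's legend gives 3 mice per group, and the remaining skmNrip1-/- mouse is not analysed here. The authors quantified paired-end reads with Salmon 1.10.2 on mm10 and summarized them to genes with tximport, and they deposited FPKM for each gene and library. How the FPKM were computed is not given in the sources used here. The FPKM of each library sum to between 969144 and 1288038, and each library has a median ratio of 1.00 to the gene-wise geometric means. The libraries thus share a median ratio and not a total, and rescaling to TPM gives them a common total in its place. The authors also deposited log2 fold changes and adjusted p-values from DESeq2 1.44.0, which were not used.

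Because FPKM are not counts, differences were tested with limma 3.58.1 (R 4.3.3; lmFit, eBayes with trend, no covariates) on log2(FPKM + 0.1), which understates changes of low genes. P-values were adjusted by Benjamini-Hochberg over the 12148 genes averaging 0.5 FPKM or more. A call required an adjusted p no higher than 0.05 together with a fold of 1.2 or more. Differences are skmNrip1-/- minus WT control by label, ± SE, with 95% intervals. TPM was FPKM divided by the library's sum.

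The members and lists were chosen with earlier results of these data known. Named by rule were all 10 clock genes and Nrip1, the members of the other clock and output lists with an unadjusted p of 0.05 or less, the member with the most positive and with the most negative difference in those and in the glucocorticoid and immediate early lists, and the 3 genes most like Arntl and Dbp. Positions are from GENCODE M21 (GRCm38). Same-numbered libraries come from different mice, nothing in the labels pairs them, and they were not paired. Their deviations from the group means correlated at 0.0647 and 0.0952. These values cannot decide on a pairing, as the deviations of the skmNrip1-/- libraries mirror each other. Alternatives covered the pseudocount, the filter, the scaling, the variance model, a replicate block, the thresholds and leaving out each library.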

Additional observations from a re-analysis of the deposited data

How the results depend on the processing

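Under 14 alternative fits, no clock gene was called in any, and the lowest adjusted p was 0.0743 (limma, Dbp, rescaled to TPM). Per1, Per3, Cry2, Nr1d2 and Dbp kept their direction in all 14. Of 140 clock gene values, 9 changed sign, none of them called. Many of these values could not change sign. The filter and the variance model cannot alter a log2 difference, and rescaling by the median ratio barely could, as the libraries already shared that ratio. The replicate block gave the same differences as leaving out WT control replicate 3. For Per3, Cry2 and Dbp the groups did not overlap, so neither a pseudocount nor leaving out a library could turn their direction. Rescaling to TPM lowers the libraries labelled skmNrip1-/- most, as their FPKM sums were highest. It therefore could not turn Per1, Per3, Cry2 or Dbp upward. Of the kept directions, only those of Per1 and Nr1d2 could have turned, and those of Per3, Cry2 and Dbp were fixed in advance. After rescaling to TPM, in which the median of all genes was −0.29, Arntl was at −0.097, Clock at −0.199, Cry1 at −0.064 and Btrc at −0.026 on the log2 scale, 4 clock genes had an unadjusted p of 0.05 or less (all tested genes 30.4%), 7 did not overlap (all tested genes 52.4%), the clock median was −0.31, and 29 genes were called higher and 59 lower. Ddit4 of the glucocorticoid list was called only there (−0.774, adjusted p = 0.0496; named after its value was seen). Over all genes, eBayes without the trend called 22 higher and 3 lower, and an adjusted p of 0.01 or less left 14 and 3. Nrip1 was not called without the trend (adjusted p = 0.0769).

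With the replicate number as a block, 18 genes were called higher and 4 lower, Nr1d1 was at 0.032 and Nrip1 was not called (adjusted p = 0.128). Nothing in the labels pairs the mice by these numbers, and no clock gene was called with the block.

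Leaving out 1 library at a time gave 6 (without skmNrip1-/- replicate 2) to 51 (without WT control replicate 2) genes called higher and 2 (without WT control replicate 3) to 15 (without WT control replicate 2) called lower. Clock genes with an unadjusted p of 0.05 or less numbered 0 to 3, and those without overlap 3 to 7, with 7 without WT control replicate 2 (all tested genes 48.1%) or skmNrip1-/- replicate 1 (53.6%). Over these fits, 39.2% to 53.6% of all tested genes did not overlap. Where 1 library labelled skmNrip1-/- remained, it was assumed to vary like WT control. Sign changes in these fits were Per2 at 0.013 and Nr1d1 at 0.059 without WT control replicate 1, Nr1d1 at 0.032 without WT control replicate 3, Cry1 at −0.016 and Nr1d1 at 0.055 without skmNrip1-/- replicate 2, and Myod1 at 0.123 without skmNrip1-/- replicate 1. At the other end of these fits, Per2 was at −0.054 without WT control replicate 3, Nr1d1 at −0.147 without WT control replicate 2, Cry1 at 0.476 without skmNrip1-/- replicate 1 and Myod1 at −0.324 without skmNrip1-/- replicate 2. The cause was not tested for any of these changes. Depth is unknown, and 5 libraries limit the precision.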

Other observations

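Genes most like Arntl across the 5 libraries, by the root mean square difference of log2 values centred on each gene's mean, were Osgep (0.026), Dhrs3 (0.035) and Ppm1m (0.040). Osgep measured 35.6, 22.8 and 26.2 FPKM in WT control and 32.3 and 29.4 FPKM in skmNrip1-/- by label, highest in WT control replicate 1 and lowest in replicate 2 like Arntl. Genes most like Dbp were Ess2 (0.014), Mydgf (0.015) and Ppfibp1 (0.021). Ppfibp1 measured 16.2, 14.1 and 15.9 FPKM in WT control and 12.7 and 13.5 FPKM in skmNrip1-/- by label, with both of the latter below WT control as for Dbp. These likenesses are descriptions over 5 libraries, chosen from 12148 tested genes.

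Egr1, an immediate early gene named after its value was seen, had a log2 difference of 0.57 ± 0.19 (limma, adjusted p = 0.325), at 0.812, 0.962 and 0.961 FPKM in WT control and 1.34 and 1.47 FPKM in skmNrip1-/- by label. Both of the latter exceeded all WT control libraries.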
